A study of Mus musculus with 9 samples.

Results

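Transcripts of 10 genes that mark macrophages of the spleen were followed through RNA-seq libraries of splenic type 2 conventional dendritic cells (cDC2s), where they were read as markers of another cell type. The members were Vcam1, Spic, Hmox1, Slc40a1, C1qa, C1qb, C1qc, Cd5l, Cd209b and Cd68. They were named as genes of red pulp and marginal zone macrophages by a rule that holds no measured value, with earlier results of these data known. All 10 of 10 had a row among the 14209 genes of the count table, and all 10 were among the 12043 genes tested. The mice were C57BL/6, with 3 libraries in each of 3 groups: wild-type (WT), CD97-deficient (labelled CD97 KO; Adgre5 is the current name of the Cd97 row) and Gα13-deficient. In the last, floxed Gna13 was deleted by a Cre recombinase under the CD11c promoter, which is active in dendritic cells and also in some macrophages, and the genotype label of these libraries names Adgre5-/- as well. The labels give no age or sex, do not say how the cells were sorted or whether WT and CD97-deficient mice carried Cre, and do not say whether a group's libraries came from separate mice. P-values are thus set against library-to-library spread alone, part of which may be technical.

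Red pulp macrophages engulf aged erythrocytes, break down their heme and return the iron to the blood. Heme lifts repression of Spic, a transcription factor of the ETS family needed for these cells, and Vcam1 and the iron exporter gene Slc40a1 are among the genes that go with Spic. Hmox1 encodes heme oxygenase, C1qa, C1qb and C1qc encode the chains of the complement component that starts the classical pathway, and Cd5l encodes a secreted scavenger protein of macrophages. Cd209b encodes the lectin SIGN-R1 of marginal zone macrophages, and Cd68 encodes a lysosomal glycoprotein of phagocytes that dendritic cells also make.

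The libraries held 5679946 to 13904646 counts, so 3 counts in 1 library corresponded to 0.216 to 0.528 CPM (counts scaled to library size). Genes of cDC2 identity, 18 of 18 listed and tested, summed to 11113 to 13435 CPM over the 9 libraries, with none at 0 in any library. Itgax, which encodes CD11c, lay between 1341 and 1928 CPM and Sirpa between 736 and 926 CPM. Gna13 was 186 to 228 CPM in WT, 217 to 246 in CD97-deficient and 91.7 to 113 in Gα13-deficient libraries, and Cd97 was 899 to 1505, 437 to 839 and 1015 to 1223 CPM. Cd97 was lower in all 3 CD97-deficient libraries than in WT without passing the test (edgeR adjusted p = 0.103), and in the Gα13-deficient libraries it lay within the WT range. Xist and Y-linked genes gave a female pattern in 5 libraries: WT replicate 2, all 3 CD97-deficient replicates and Gα13-deficient replicate 2. CPM values of the members are on the scale of TMM-adjusted library sizes.

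The C1q genes lie together on chromosome 4 (GRCm38, minus strand): C1qb at 136880129 to 136886187, C1qc at 136889804 to 136893065 and C1qa at 136895917 to 136898803. Vcam1 (minus strand, 116109949 to 116129688) and Cd5l (plus strand, 87357881 to 87371073) lie on chromosome 3, and Hmox1 (plus strand, 75093621 to 75100589) and Cd209b (minus strand, 3917655 to 3926844) on chromosome 8. Spic is at 88674772 to 88685015 of chromosome 10, Slc40a1 at 45908068 to 45926523 of chromosome 1 and Cd68 at 69664213 to 69666153 of chromosome 11, all on the minus strand. All 10 are annotated as protein-coding. The 250 bases before the RefSeq start (GRCm38.p6) are printed for C1qb, C1qc and Cd5l, whose levels moved together in the libraries, and for Cd68, whose level did not move with them. Capitals mark GAGGAA or its reverse complement TTCCTC, the PU box, 1 form of the sites that ETS factors such as PU.1 and Spic bind. Each sequence reads 5′ to 3′ on the strand of its gene.
C1qb (chr4:136886201-136886450, minus strand): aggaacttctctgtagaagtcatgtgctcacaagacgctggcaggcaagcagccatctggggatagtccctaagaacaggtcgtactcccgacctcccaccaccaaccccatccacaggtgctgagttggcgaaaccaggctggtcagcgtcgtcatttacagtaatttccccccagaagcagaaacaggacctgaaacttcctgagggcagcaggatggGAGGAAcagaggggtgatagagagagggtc
C1qc (chr4:136892915-136893164, minus strand): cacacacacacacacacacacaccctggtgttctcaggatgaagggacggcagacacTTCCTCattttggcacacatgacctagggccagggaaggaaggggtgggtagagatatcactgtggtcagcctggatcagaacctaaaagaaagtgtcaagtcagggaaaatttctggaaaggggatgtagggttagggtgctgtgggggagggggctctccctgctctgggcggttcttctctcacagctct
Cd5l (chr3:87357631-87357880, plus strand): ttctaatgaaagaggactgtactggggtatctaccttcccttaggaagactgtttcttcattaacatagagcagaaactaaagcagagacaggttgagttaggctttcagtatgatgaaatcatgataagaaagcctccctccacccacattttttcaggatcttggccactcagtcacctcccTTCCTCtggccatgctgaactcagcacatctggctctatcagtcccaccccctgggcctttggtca
Cd68 (chr11:69666171-69666420, minus strand): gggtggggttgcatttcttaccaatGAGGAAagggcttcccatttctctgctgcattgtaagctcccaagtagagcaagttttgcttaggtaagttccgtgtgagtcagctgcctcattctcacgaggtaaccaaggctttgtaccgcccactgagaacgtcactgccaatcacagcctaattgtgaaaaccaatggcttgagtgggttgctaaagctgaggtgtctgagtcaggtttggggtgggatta
The letters were found at bases -30 to -25 before C1qb, -193 to -188 before C1qc, -66 to -61 before Cd5l and -225 to -220 before Cd68. Of the 6 members with an entry, Spic and Cd209b had no such letters in this window. The Spic window (chr10:88683024-88683273) lies inside the gene span given above, so the bases before that span were not searched. The windows of C1qc and Cd209b overlap their gene spans in part. Shorter or other ETS sites were not searched for. On either strand 23.3% of the 32851 promoters of the same length held them, 7639 in all. The letters TGCTGA, part of a site for MAF factors, or their reverse complement TCAGCA, were present before C1qb (-131 to -126), Cd5l (-54 to -49 and -46 to -41) and Spic (-198 to -193), against 16.1% of all promoters, and did not overlap the first motif. A match describes letters and not binding, and Cd68 held the first motif as the 3 others did. The promoters of Vcam1, Hmox1, Slc40a1 and C1qa are not shown.

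The 3 C1q genes varied several-fold among libraries of the same genotype. C1qb stood at 19.2, 79.2 and 18.8 CPM over WT replicates 1 to 3, at 108, 29.6 and 79.4 CPM with CD97 lost and at 47.7, 66.0 and 43.2 CPM with Gα13 lost. C1qc stood at 11.4, 43.7 and 8.99 CPM over WT replicates, at 63.2, 12.3 and 47.8 CPM with CD97 lost and at 26.1, 34.9 and 20.1 CPM with Gα13 lost. C1qa had 4.58, 18.5 and 2.55 CPM, then 26.2, 4.98 and 16.1, then 10.1, 14.8 and 9.92. All 3 were highest in CD97-deficient replicate 1, with WT replicate 2 and CD97-deficient replicate 3 next, and lowest in WT replicate 3, and the groups overlapped for each gene. Behind these values stood 15 to 222 counts for C1qa, 53 to 535 for C1qc and 111 to 916 for C1qb. Per length, in counts per kilobase of exon, C1qc stood at 0.234 to 0.339 of the level of C1qb in the same library and C1qa at 0.141 to 0.254. The level of C1qb itself spanned 5.75-fold over the 9 libraries, so the chains kept a narrower ratio, spanning 1.45-fold for C1qc and 1.79-fold for C1qa, than their own levels.

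Spic and the genes that go with it in red pulp macrophages were, like C1q, highest in CD97-deficient replicate 1. Vcam1, an adhesion molecule for integrin α4β1, stood at 157, 519 and 61.1 CPM over WT replicates, at 693, 98.1 and 311 CPM with CD97 lost and at 250, 317 and 185 CPM with Gα13 lost. Slc40a1, which encodes ferroportin, stood at 16.5, 78.1 and 13.1 CPM over WT replicates, at 120, 19.2 and 64.1 CPM with CD97 lost and at 22.5, 39.1 and 27.3 CPM with Gα13 lost. Spic stood at 15.5, 34.9 and 15.4 CPM over WT replicates, at 46.2, 11.6 and 28.9 CPM with CD97 lost and at 18.7, 19.6 and 15.6 CPM with Gα13 lost. The 2 highest libraries were CD97-deficient replicate 1 and WT replicate 2 for all 3 genes, and no pair of groups was separated. Spic spanned 4.0-fold over the 9 libraries, less than Vcam1 (11.3-fold) and Slc40a1 (9.18-fold). Vcam1 shares exon sequence with Gm43109, an antisense gene annotated on the other strand and without a row of its own, so reads of the pair cannot be told apart if counting ignored strand.

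Hmox1 and Cd5l were also highest in that library. Hmox1 stood at 30.7, 118 and 27.3 CPM over WT replicates, at 202, 49.5 and 174 CPM with CD97 lost and at 69.0, 120 and 51.9 CPM with Gα13 lost. Cd5l stood at 8.17, 40.2 and 6.96 CPM over WT replicates, at 51.9, 14.5 and 42.9 CPM with CD97 lost and at 12.1, 30.7 and 7.92 CPM with Gα13 lost. Both genes overlapped between all pairs of groups, and in each genotype the library highest in C1qb was also highest in Hmox1 and Cd5l.

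Cd68 and Cd209b behaved differently from these 8 genes. Cd68 stood at 279, 298 and 269 CPM over WT replicates, at 373, 336 and 348 CPM with CD97 lost and at 318, 312 and 316 CPM with Gα13 lost. The 3 groups did not overlap, with WT lowest and CD97-deficient highest, and the whole range was 1.39-fold. Cd209b stood at 14.9, 5.97 and 8.49 CPM over WT replicates, at 0.946, 1.32 and 2.23 CPM with CD97 lost and at 4.43, 1.22 and 2.43 CPM with Gα13 lost, from 7 to 137 counts. All 3 WT libraries lay above all 6 knockout libraries, and the knockout groups overlapped each other. Of all genes tested, 28.2% did not overlap between CD97-deficient and WT libraries, 29.6% between Gα13-deficient and WT and 13.1% between the knockouts. How many genes separated all 3 groups at once was not counted. WT replicate 2, among the highest libraries for C1q, was the lowest WT library for Cd209b.

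**Figure D1:**
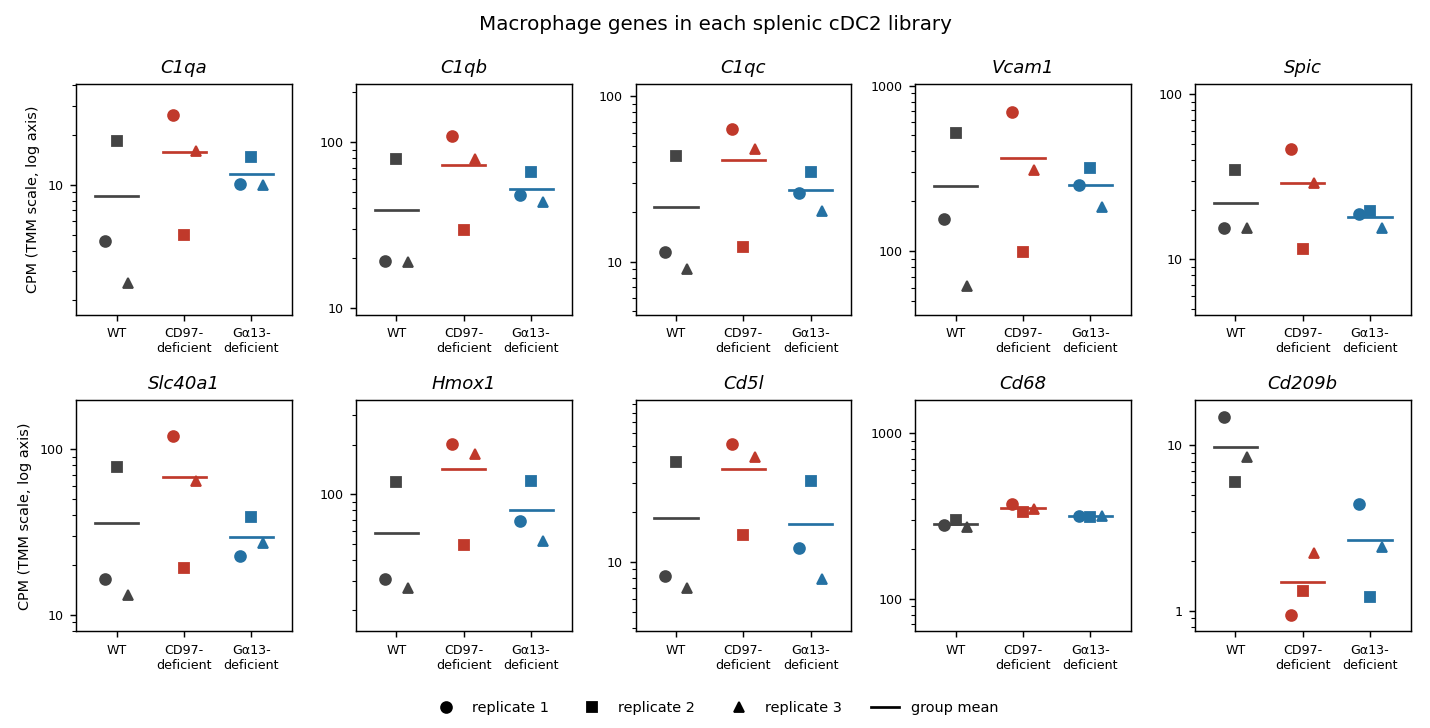
CPM of each macrophage gene (log axis, each panel spanning the same fold) in the 3 libraries of each genotype, with symbols for replicates and lines for group means. Points of 1 genotype are widely spread for 8 genes, such as 61.1 to 519 CPM for Vcam1 in WT, while Cd68 stays between 269 and 373 CPM and Cd209b is lower in all knockout libraries than in all WT libraries.

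Compared per length as means over the 9 libraries, in CPM per kilobase of exon, Cd68 was the most abundant member at 252 ± 26.2 (SD, n = 9). Hmox1 (53.5 ± 36.2), C1qb (50.2 ± 28.3) and Vcam1 (32.5 ± 23.1) followed, and these 3 neighbours did not differ beyond their spread. C1qc (15.5 ± 9.77), Cd5l (11.8 ± 8.63) and C1qa (11.5 ± 7.37) came next, then Spic (5.97 ± 2.98), Slc40a1 (4.93 ± 4.01) and Cd209b (2.2 ± 2.18), again with overlapping spreads within each run. These spreads hold swings between libraries that several genes share, so they do not describe the order within a library. C1qc, for example, was above C1qa per length in every library. In the bulk libraries a smaller number of cells of a type and less RNA per cell cannot be told apart.

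The spread inside genotypes was large against that of other genes. The biological coefficient of variation (BCV), edgeR's estimate of the replicate spread beyond counting noise as a share of the level, was 0.757 for Vcam1, 0.733 for Cd5l, 0.724 for Slc40a1, 0.681 for C1qa, 0.651 for C1qc, 0.639 for Hmox1 and 0.590 for C1qb, against a median of 0.142 over all genes tested. Vcam1 ranked 38 of 12043 by this measure, Spic (0.438) ranked 344 and Cd209b (0.354) ranked 767. For 8 of the 10 members fewer than 3% of the genes tested had a higher value. Cd68, at 0.0868, ranked 11926, so 99.0% of the genes varied more. Within WT the highest Vcam1 library was 8.5-fold above the lowest, within CD97-deficient 7.06-fold and within Gα13-deficient 1.71-fold, against medians over all genes of 1.30-fold, 1.24-fold and 1.25-fold. C1qb spanned 4.2-fold, 3.66-fold and 1.53-fold in the same groups. For 7 of the 8 varying genes the Gα13-deficient libraries were the closest together of the 3 groups, the exception being Cd5l, which spanned 5.78-fold in WT, 3.58-fold in CD97-deficient and 3.88-fold in Gα13-deficient libraries. A difference in spread between groups of 3 was not tested.

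**Figure D2:**
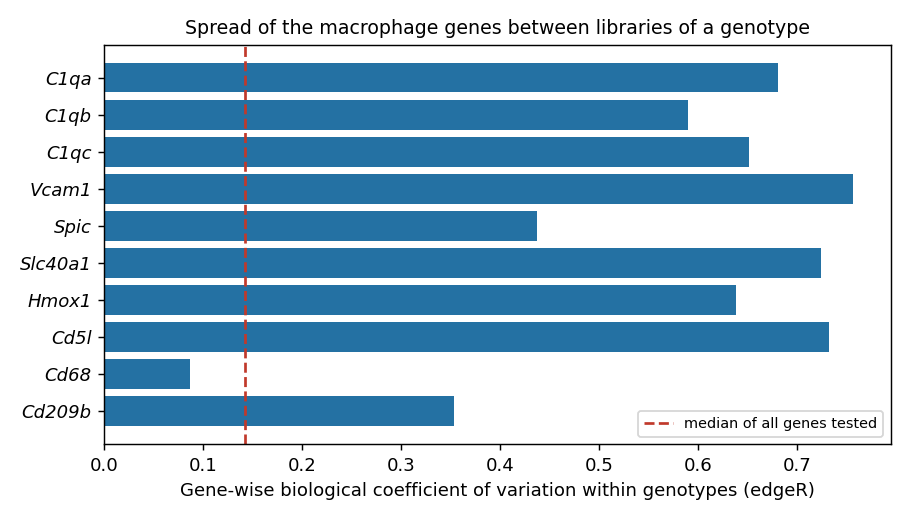
Biological coefficient of variation within genotypes for each macrophage gene (bars, from 0), with the median of all 12043 genes tested (0.142) as a dashed line. Cd68, at 0.0868, is the only bar that ends below the line.

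The shared pattern was measured as the slope of a gene's log2 CPM on the mean log2 CPM of C1qa, C1qb and C1qc over the 9 libraries. A slope of 1 means that a gene changed in proportion to C1q and a slope of 0 that it did not follow it. The slopes were 1.07 for Vcam1, 1.06 for Slc40a1, 1.04 for Cd5l, 1.03 for Hmox1 and 0.56 for Spic. For the C1q genes, which enter the mean themselves, they were 0.92 to 1.07. Cd68 had a slope of 0.11 and Cd209b one of -0.75. Among all genes tested, 261 (2.17%) had a slope of at least 0.5. The libraries, from high to low C1q, ran from CD97-deficient 1 (1.33 above the mean of all libraries on the log2 scale) through WT 2 (0.84), CD97-deficient 3 (0.82), Gα13-deficient 2 (0.54), Gα13-deficient 1 (0.07), Gα13-deficient 3 (-0.11), CD97-deficient 2 (-0.85) and WT 1 (-1.13) to WT 3 (-1.51). Each genotype had a library in the upper and one in the lower part of this order. The values of 1 library share its depth and scaling, so the slopes are descriptions with no test. Of the 5 libraries with the female pattern, 4 held the 4 highest C1q levels. The remaining one, CD97-deficient replicate 2, lay above WT 1 and WT 3 but below Gα13-deficient 1 and Gα13-deficient 3, which lacked that pattern. What part sex had in the pattern was not tested.

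**Figure D3:**
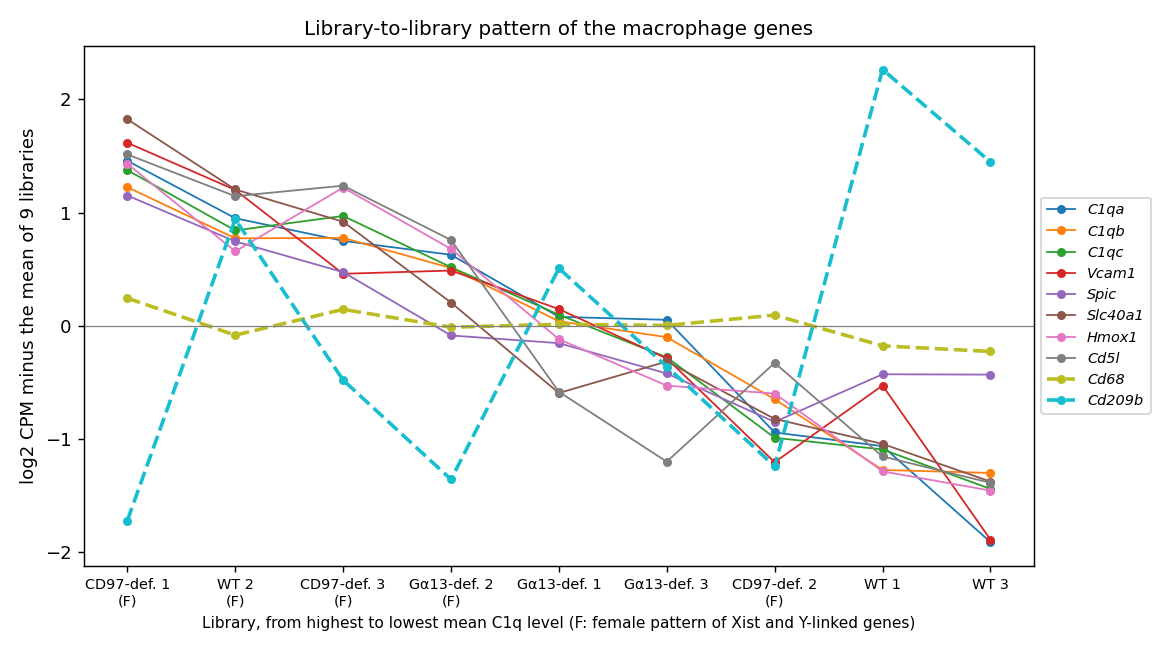
Level of each macrophage gene in the 9 libraries (log2 CPM minus the gene's mean over the libraries), with libraries ordered by mean C1q level and F marking the female pattern. The 8 solid lines are highest at CD97-deficient 1 and lowest at WT 3, except that of Spic, which is lowest at CD97-deficient 2. Dashed lines are Cd68 (nearly flat, slope 0.11) and Cd209b (slope -0.75).

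The loss of CD97 came with lower Cd209b and higher Cd68, and the other 8 genes did not pass the test. The mean Cd209b level was 9.80 ± 4.62 CPM without and 1.5 ± 0.662 CPM with CD97 loss (SD, n = 3), and its log2 fold change was -2.72 ± 0.48 (SE; edgeR quasi-likelihood adjusted p = 0.00451). The mean Cd68 level was 282 ± 14.4 and 353 ± 18.7 CPM, and its log2 fold change was 0.32 ± 0.08 (edgeR adjusted p = 0.0180). Among all genes tested 8.49% were called in this comparison (4.82% higher and 3.68% lower), and 24.9% had an unadjusted p under 0.05, as these 2 members had. Without overlap between the groups were 28.2% of all genes (14.7% higher and 13.5% lower), Cd209b and Cd68 among them. The 8 others had log2 fold changes above 0, from 0.42 ± 0.52 for Spic and 0.58 ± 0.94 for Vcam1 over 0.90 ± 0.71 for C1qb, 0.90 ± 0.77 for C1qa, 0.93 ± 0.87 for Slc40a1, 0.96 ± 0.77 for C1qc and 1.0 ± 0.86 for Cd5l to 1.28 ± 0.78 for Hmox1, with adjusted p from 0.375 (Hmox1) to 0.749 (Vcam1). All 8 overlapped between the groups. The median over the 10 members was 0.90, against -0.0019 over all genes, beside standard errors of 0.52 to 0.94 for the 8.

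Both calls depended on single settings or libraries. With the sex pattern as a term in the model Cd209b was not called (log2 fold change -1.90, adjusted p = 0.113), nor was Cd68 (0.29, adjusted p = 0.161). All 3 CD97-deficient libraries and 1 of 3 WT libraries had the female pattern, so that fit separates genotype from sex through few libraries. With the mean C1q level as a term, which was added after the data were seen, Cd209b was called (-2.32, adjusted p = 0.0239) and Cd68 was not (0.27, adjusted p = 0.0956). Cd209b was called in all 6 fits that left out 1 library of the 2 groups (highest adjusted p 0.0278). Cd68 was called in 3 of the 6, and its adjusted p was 0.0577 when WT replicate 1 was left out, 0.0866 when CD97-deficient replicate 1 was and 0.0650 when replicate 3 of that genotype was. In a fit of the 2 groups with the replicate block it was 0.0569. The log2 fold changes of the 8 other genes moved widely with single libraries. Without WT replicate 2, the WT library highest in all 8, their log2 fold changes ran from 0.93 (Spic) to 2.29 (Hmox1), with Cd5l at 2.27, Slc40a1 at 2.19, C1qa at 2.11 and Vcam1 at 1.73, and none was called (adjusted p from 0.116 for C1qb to 0.320 for Spic). Without CD97-deficient replicate 1 they ran from -0.26 (Vcam1) to 0.94 (Hmox1), with Spic at -0.084, Slc40a1 at 0.24 and C1qa at 0.35.

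In Gα13-deficient libraries Cd209b was again lower, and it was the 1 member of 10 called. Its mean was 2.69 ± 1.62 CPM (SD, n = 3), beside 9.80 ± 4.62 in WT, and its log2 fold change was -1.85 ± 0.41 (SE; edgeR adjusted p = 0.0118). Cd68 averaged 315 ± 2.83 CPM, with all 3 libraries above WT and a log2 fold change of 0.16 ± 0.08 that did not pass (adjusted p = 0.187). In this comparison 11.3% of all genes were called (5.89% higher and 5.46% lower), 26.4% had an unadjusted p under 0.05, as Cd209b and Cd68 had, and 29.6% did not overlap (15.5% higher and 14.0% lower), again with Cd209b and Cd68 among them. The other 8 genes lay on both sides of 0, from -0.31 ± 0.54 for Spic and -0.31 ± 0.91 for Slc40a1 to 0.40 ± 0.72 for C1qb and 0.42 ± 0.79 for Hmox1, with adjusted p between 0.769 and 0.992. The median over the 10 members was 0.091, against -0.0079 over all genes. Without WT replicate 2 all 8 lay above 0, from 0.19 (Spic) to 1.57 (C1qa), and none was called (adjusted p from 0.211 for C1qb to 0.860 for Spic). The call of Cd209b was lost without WT replicate 1 (adjusted p = 0.0577) and without Gα13-deficient replicate 3 (0.0627), and held with the sex pattern as a term (adjusted p = 0.00254) and with the replicate block (adjusted p = 0.00284). A term for the mean level of C1qa, C1qb and C1qc was added after the data were seen. It is built from members that Slc40a1 and Spic followed in the same libraries. With it Slc40a1 (-0.67, edgeR adjusted p = 0.0136) and Spic (-0.66, adjusted p = 0.0364) passed as well, which is no separate evidence of a fall. The share of all genes called in that fit is not given here. Both knockouts are compared with the same 3 WT libraries, so the 2 falls of Cd209b are not independent of each other.

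Set directly against each other, the knockouts showed 0 of 10 members called by edgeR and 0 by DESeq2, where edgeR called 0.0415% of all genes (5 of 12043; 0.0332% higher and 0.0083% lower). By unadjusted p under 0.05, edgeR would pick 1 member, Cd68, and 6.36% of all genes. Its log2 fold change was -0.16 ± 0.08 (adjusted p = 0.781). Cd68 did not overlap between the knockouts, as 13.1% of all genes did not (7.16% higher and 5.99% lower). Cd209b was 0.87 ± 0.59 higher in Gα13-deficient than in CD97-deficient libraries on the log2 scale (adjusted p = 0.880), and the 8 genes that varied together were 0.50 to 1.26 lower, with standard errors of 0.52 to 0.94. All 8 overlapped between the knockouts (adjusted p from 0.896 to 0.964).

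**Figure D4:**
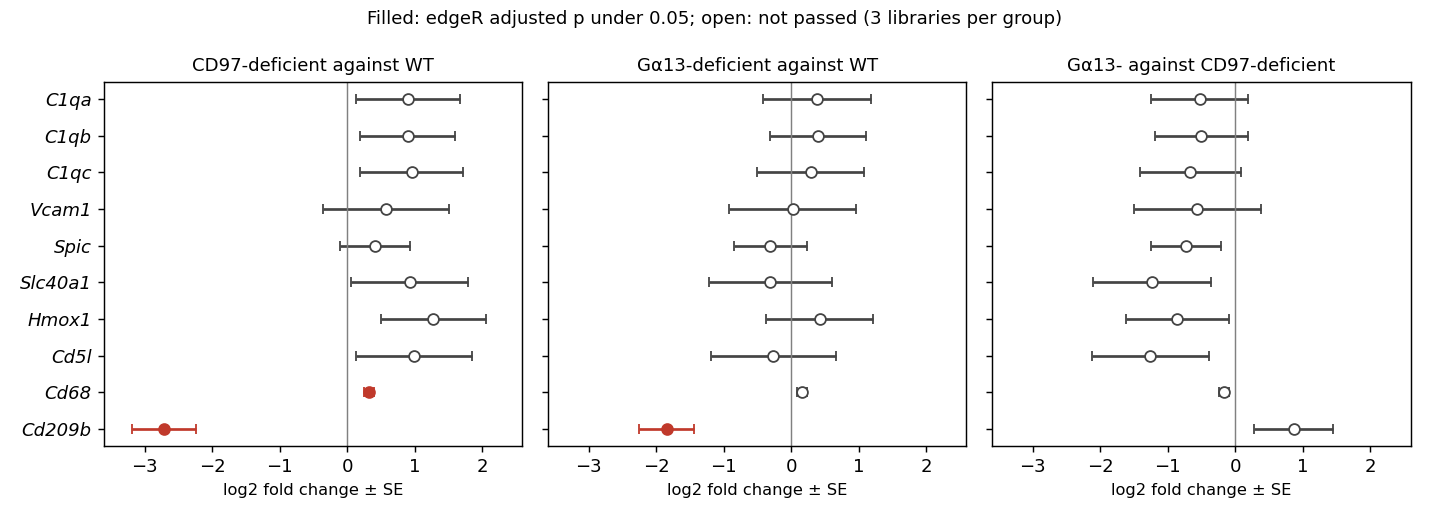
Log2 fold change ± SE of the 10 macrophage genes in the 3 comparisons, filled where the edgeR adjusted p was under 0.05. Cd209b is filled in both comparisons with WT (-2.72 and -1.85) and Cd68 in the first (0.32), and the error bars of the genes that varied together are far wider than that of Cd68.

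Cd209b is 1 of a family of related lectin genes, and similar reads may be shared or lost between them. Cd209a, a family member made by dendritic cells, stood at 583, 183 and 199 CPM over WT replicates, at 120, 108 and 75.7 CPM with CD97 lost and at 242, 119 and 132 CPM with Gα13 lost. It was highest in WT replicate 1, as Cd209b was. Its log2 fold changes of -1.68 ± 0.56 and -0.97 ± 0.54 did not pass (edgeR adjusted p = 0.128 and 0.320), although CD97-deficient and WT libraries did not overlap. Cd209d had 4.14 to 5.57 CPM in WT and 4.34 to 15.4 in Gα13-deficient libraries (1.02 ± 0.47, adjusted p = 0.199). Cd209c reached at most 3.92 CPM and Cd209e 0.927 CPM. How reads were divided between these genes was not tested.

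Among the 8 genes tested that were most like C1q, by the root mean square difference of their centred log2 CPM over the 9 libraries with members set aside, were Axl (0.127), Ptgs1 (0.150), Fcna (0.218), Gstm1 (0.220), Stab2 (0.224), Pld3 (0.233) and Dmxl2 (0.242). A gene that stayed level would have had 0.927. Axl encodes a receptor for apoptotic cells and Fcna a ficolin of the lectin pathway. Axl ranged from 23.8 to 155 CPM over the libraries. Among the 8 genes most like Cd209b were Micalcl (0.554), A430071A18Rik (0.563), Tex14 (0.598), Apol7c (0.636), Dusp4 (0.656), Tbx6 (0.662) and Gm11435 (0.665), against 1.2 for a level gene. None of these was on the macrophage lists, and those named here other than Apol7c (193 CPM) averaged between 1.13 and 7.14 CPM.

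Of other macrophage genes, 24 listed and all tested, 15 had a slope on C1q of at least 0.5. Among them were Mertk (1.30) and Mrc1 (1.17), receptors for dying cells and for mannose. Siglec1 (1.11), the sialoadhesin of metallophilic macrophages, and the lineage factor Maf (1.0) were others. A slope alone does not show likeness. Itgad (0.51) had a root mean square difference from C1q of 1.03, above the 0.927 of a level gene, and Gas6 (0.84) reached at most 1.79 CPM. Mertk spanned 5.77 to 87 CPM and Mrc1 13.1 to 229 CPM over the libraries. Emr1, which encodes the macrophage antigen F4/80, had a slope of -0.13, Treml4 one of 0.047 and Timd4 one of 0.16. By edgeR, 0 of the 24 rose and 1 fell after CD97 loss, and 1 rose and 1 fell after Gα13 loss. Over all genes, 8.49% were called in the first comparison and 11.3% in the second. Emr1 was the gene that fell, by 0.62 ± 0.12 (adjusted p = 0.00675) and by 0.73 ± 0.12 (adjusted p = 0.00189) on the log2 scale, and Itgad, which encodes integrin αD, rose after Gα13 loss (2.15 ± 0.36, adjusted p = 0.0114). The list's median log2 fold changes were 0.57 and 0.19, and its summed level ran from 1445 to 2735 CPM in WT, 1585 to 3054 in CD97-deficient and 2434 to 2761 in Gα13-deficient libraries.

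Lists by function were read in the same way. Over all genes tested, 8.49% were called after CD97 loss, 11.3% after Gα13 loss and 0.0415% between the knockouts. Of 22 tested genes of heme and iron handling 4 had a slope of at least 0.5 (Cd163, Slc11a1, Blvrb and Trf). The ferritin genes Fth1 (slope 0.025, 636 to 926 CPM) and Ftl1 (0.25, 316 to 545 CPM) stayed within 1.46-fold and 1.73-fold. None of the 22 was called after CD97 loss. Slc7a11, the cystine importer, fell by 1.30 ± 0.20 (adjusted p = 0.00109) and Mfsd7b, an older symbol of the heme exporter gene Flvcr1, by 0.71 ± 0.15 (0.0121) after Gα13 loss. Of 15 tested complement genes, C3 alone had such a slope (0.56), and 3 rose after Gα13 loss, namely Itgam (0.42 ± 0.07, adjusted p = 0.00205), Calr (0.47 ± 0.11, 0.0168) and Cd93 (0.83 ± 0.22, 0.0286), while 0 passed the test after CD97 loss. Cfp, the gene of properdin, was the most abundant soluble component at 300 to 405 CPM, with a slope of 0.079. Of 21 scavenger and apoptotic cell receptors 10 had a slope of at least 0.5, and 2 rose after Gα13 loss, Scarb1 (0.45 ± 0.13, adjusted p = 0.0434) and Cd36 (1.02 ± 0.31, 0.0487). Of 11 genes of the LXR pathway, which induces Cd5l in macrophages, Nr1h3 and Abca1 had such slopes. Mylip fell in both comparisons (by 0.50 ± 0.14, adjusted p = 0.0387, and by 0.75 ± 0.14, 0.00360) and Scd2 rose after CD97 loss (0.95 ± 0.23, 0.0387). None of the 18 cDC2 identity genes had a slope of at least 0.5, and their median was -0.042. By edgeR 0 rose and 1 fell after CD97 loss (Ccr7), and 3 rose and 5 fell after Gα13 loss. Between the knockouts none of the genes of these 6 lists was called by edgeR.

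**Figure D5:**
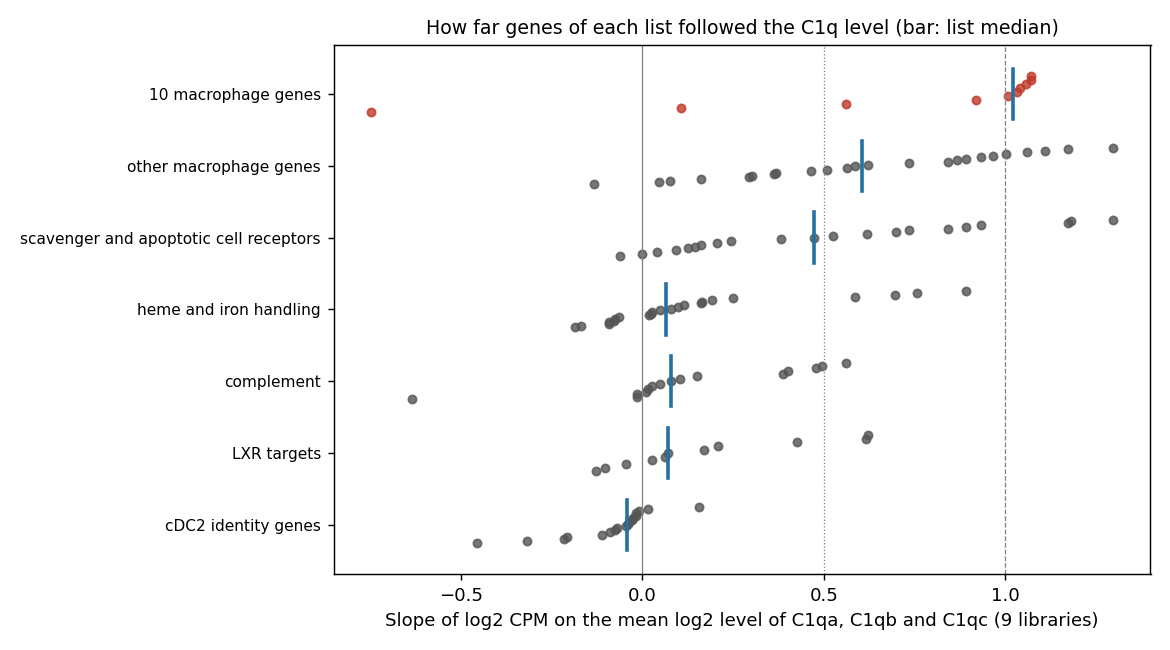
Slope of each tested gene on the mean C1q level over 9 libraries, by list, with a bar at the list's median, a dotted line at 0.5 and a dashed line at 1. The 10 macrophage genes centre on 1.02 and the other macrophage genes on 0.60, while cDC2 identity genes centre on -0.042 and the heme, complement and LXR lists near 0.

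Markers of further cell types were read in the same libraries, from lists that partly share genes with dendritic cells. Summed levels were 3.90 to 10.4 CPM for natural killer cells, 13.2 to 37.0 for neutrophils, 3.05 to 7.92 for platelets, 11.1 to 45.4 for erythroid cells, 92.4 to 149 for T cells and 353 to 533 for B cells, in CPM. They were 399 to 729 CPM for plasmacytoid dendritic cells, 254 to 510 for monocytes and 238 to 387 for cDC1 genes. Endothelium and stroma had 133 to 154 CPM and plasma cells 121 to 145. Of the B cell sum, Cd22 alone held 285 to 441 CPM. Slopes of at least 0.5 on C1q were found in 0 of 6 tested T cell genes, 1 of 11 B cell genes (Pax5) and 1 of 6 erythroid genes (Slc4a1). They were also found in 4 of 10 cDC1 genes (Cadm1, Xcr1, Irf8 and Clec9a) and 2 of 10 monocyte genes (Cd14 and Ly6c2). Plasmacytoid dendritic cells had 2 of 10, plasma cells 2 of 5 and natural killer cells 1 of 3. Platelets had 1 of 1, neutrophils 0 of 2, and endothelium and stroma 1 of 5 (Stab2). Median slopes were 0.35 for T cells, 0.47 for natural killer cells, 0.066 for B cells and 0.12 for erythroid cells. The 10 members together made up 432 to 1235 CPM in WT, 577 to 1684 in CD97-deficient and 679 to 956 in Gα13-deficient libraries, with no member at 0 in any library. Cd68, which dendritic cells also make, held 269 to 373 CPM of these sums. What part macrophages, their RNA or macrophage genes made by the dendritic cells had in these levels was not tested.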

How the data were processed

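The authors deposited whole-number counts per gene symbol for 9 libraries. Per the submitters' processing notes STAR, HTSeq, DESeq2 and mm10 were used, without versions or roles; the annotation and strand setting are not given in the sources used here. No gene totals under 10 counts over the libraries, and 0 columns lacked a sample. Groups and replicate numbers follow the titles, and WT columns were matched through source names, whose numbers differ from the titles.

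All libraries entered 1 edgeR 4.0.16 fit in R 4.3.3 (quasi-likelihood, legacy off, robust, TMM factors), which left 12043 genes after the default filter. Benjamini-Hochberg adjusted p under 0.05 over all genes tested was the threshold. Log2 CPM used a prior count of 2. Exon lengths come from GENCODE M21. The test was tried on simulated counts. DESeq2 1.42.0, RLE factors, library totals, no filter, left-out libraries, 2-group fits, a replicate block and the sex pattern were alternatives, and the mean C1q level as a term was added after seeing the data.

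Same-number WT and Gα13-deficient libraries deviated together (r 0.111 to 0.179, 3 of 3 pairs above 0.1), and 0 of 6 different-number pairs exceeded 0.1. Between WT and CD97-deficient libraries, 0 of 3 same-number pairs exceeded it (r -0.301 to 0.059), but 4 of 6 different-number pairs did (r up to 0.216). Replicate 2 alone had the female pattern in both WT and Gα13-deficient groups. The labels name no pairing, and whether replicate numbers mark a shared animal, day or sex was not tested. The members, lists and the rule for named genes (all members, up to 4 genes a list by smallest p with up to 3 by level, and the 8 most alike, of which 1 on each side is not reported here) were chosen with earlier results of these data known. Genes named for their slope on C1q, other Cd209 genes and Emr1 were chosen after their values were seen.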

Additional observations from a re-analysis of the deposited data

How the results depend on the processing

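The counts of genes called were 1023, 1366 and 5 (CD97-deficient against WT, Gα13-deficient against WT, Gα13- against CD97-deficient), and those of members 2, 1 and 0. With the sex pattern as a term they were 213 and 0 members in the first comparison and 3 genes in the third. With the mean C1q level as a term they were 417 and 1 member in the first and 16 genes in the third. In the second that term gave 3 members (Cd209b, with Slc40a1 at -0.67, edgeR adjusted p = 0.0136, and Spic at -0.66, 0.0364). The count over all genes in that fit is not given here, so these 3 members cannot be set against it. The third count was 49 in a fit of the 2 groups alone, 66 there with the replicate block and 54 by DESeq2. The replicate block left 1 member called after CD97 loss, with Cd68 at an adjusted p of 0.0569, and turned Slc40a1 (0.057) and Cd5l (0.036) after Gα13 loss. It changed no other call of a member. Leaving out 1 library gave 350 to 1227, 768 to 1468 and 4 to 16 genes, and 1 to 2, 0 to 1 and 0 members. The lowest counts came without CD97-deficient replicate 3 (350) and Gα13-deficient replicate 2 (768), and 429 and 514 genes were called without WT replicate 1 and CD97-deficient replicate 1. The split of the calls moved when library totals replaced TMM factors, from 580 higher and 443 lower to 766 and 340 after CD97 loss and from 709 and 657 to 868 and 531 after Gα13 loss. The causes were not tested.

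Of the values of single members under alternatives, 371 kept direction and side of the threshold, 29 changed sign, 9 lost a call and 2 gained one. With the sex pattern Vcam1 turned to -0.044 after CD97 loss and Slc40a1 to 0.045 after Gα13 loss, and in the third comparison Vcam1 turned to 0.44, Hmox1 to 0.089, C1qa to 0.38, C1qb to 0.37, C1qc to 0.22 and Cd209b to -0.054. With the C1q term Vcam1 (-0.56), Spic (-0.32) and Slc40a1 (-0.11) turned after CD97 loss, Vcam1 (-0.43) and Hmox1 (-0.021) after Gα13 loss, and Vcam1 (0.13) in the third. Over left-out libraries, after CD97 loss Vcam1 ranged from -0.26 to 1.73 and Spic from -0.084 to 0.93; after Gα13 loss Vcam1 ranged from -0.43 to 1.17, C1qc from -0.053 to 1.33, Spic from -0.54 to 0.19, Slc40a1 from -0.69 to 0.95 and Cd5l from -0.92 to 0.98; between knockouts Vcam1 ranged from -1.0 to 0.28 and C1qa from -0.90 to 0.037. Depth limits Cd209b most, at 7 to 20 counts in 4 of the knockout libraries.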
